A study of Chelidonium majus with 4 samples.

Results

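The contigs described here are 7 rows of the deposited count table of *Chelidonium majus*, greater celandine, out of 232701 assembled contigs in all. They were chosen by name: TR5701|c170889_g1_i1 and TR3393|c131353_g1_i1, beside which the study printed *TNMT*, and TR24661|c107743_g1_i1, TR24662|c107744_g1_i1, TR24663|c107745_g1_i1, TR24666|c107748_g1_i1 and TR24667|c107749_g1_i1, beside which it printed *MSH*. The study's text gives both names the opposite tissues, so the names may be exchanged, and the table itself pairs no contig with a gene. The first 2 are therefore called the contigs printed *TNMT*, possibly *MSH*, and the other 5 the contigs printed *MSH*, possibly *TNMT*. The study picked them from these same libraries, so their direction is not independent evidence.

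RNA was sequenced from 2 tissues of greenhouse-grown plants, leaf (libraries leaf 3 and leaf 4) and root (libraries root 2 and root 4), with no treatment named. All 4 libraries carry the same ecotype label, IBRCP1006619, a collection described as a high producer of the alkaloid chelidonine. The study calls the libraries of a tissue biological replicates. The age of the plants and the number of plants behind each library are not given in the sources used here. The p-values of the tests set the difference between tissues against the spread between these libraries, which is partly estimated across all tested contigs. How much of that spread comes from separate plants is not known. The table holds no gene names, so leaf and root were not checked against marker genes.

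*TNMT*, tetrahydroprotoberberine cis-N-methyltransferase, adds a methyl group to the nitrogen of (S)-stylopine. *MSH*, methylstylopine hydroxylase, is a cytochrome P450 that oxidises the N-methylated product, from which protopine forms. Protopine 6-hydroxylase (*P6H*), another P450, takes protopine on towards sanguinarine, a red-orange benzophenanthridine alkaloid of the poppy family that is toxic to microbes and animals. Since *TNMT* and *MSH* act one after the other, an exchange of the names would move a contig by a single step of this branch and not out of it.

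Estimated counts summed to between 15281682 and 19781065 per library. A level is given in counts per 1000000 counts, scaled with edgeR's TMM factors (normalized CPM) and is not divided by contig length, so levels are compared between libraries and not between contigs. A group of 33 contigs, c1 to c33, took 22.1% of the counts of root 2, against 0.323% to 8.02% in the other 3 libraries, and root 2 had the lowest TMM factor (0.729, against 1.03 to 1.23). The root libraries also lay further apart: the median contig differed between replicates by 0.25 on the log2 scale in leaf and by 0.56 in root (0.1 CPM added to each level). The part of this spread in the results below was not tested beyond leaving out each library and the 100 most abundant contigs.

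The contigs printed *TNMT*, possibly *MSH*, both had higher levels in either root library than in either leaf library. TR5701|c170889_g1_i1 had 768 and 944 counts in leaf 3 and leaf 4, and 9977 and 12573 in root 2 and root 4. After scaling, its levels were 42.4 and 45.7 normalized CPM in leaf and 708.99 and 708.57 in root, so that each root library lay 15.5 to 16.7 times above each leaf library. The root libraries, which differed by 0.56 on the log2 scale for the median contig, gave TR5701|c170889_g1_i1 nearly the same level (root 4 minus root 2, -0.00085 on that scale). TR3393|c131353_g1_i1 had 383 and 461 counts in leaf 3 and leaf 4, and 2755 and 4269 in root 2 and root 4. Its levels were 21.2 and 22.3 normalized CPM in leaf and 196 and 241 in root, 8.78 to 11.4 times higher in root over the 4 pairs of a root and a leaf library.

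The contigs printed *MSH*, possibly *TNMT*, ran the other way, and all 5 had higher levels in either leaf library than in either root library. TR24661|c107743_g1_i1 had 383 counts in leaf 3, 537 in leaf 4 and 1 in each root library. Its leaf to root ratio was 377 after scaling, with a 95% interval from 104 to 3122 (Clopper-Pearson on the split of counts). This and the following intervals cover counting error only. TR24663|c107745_g1_i1 had 221 and 333 counts in leaf and 2 in each root library, a ratio of 114 (44.1 to 419). For TR24667|c107749_g1_i1 the counts were 268 and 387 in leaf and 2 and 5 in root, a ratio of 76.8 (37.1 to 192). These 3 contigs were thus close to the limit of detection in root, where 1 count stands for 0.0711 normalized CPM in root 2 and 0.0564 in root 4.

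The remaining members kept a measurable root level. TR24662|c107744_g1_i1 had 450 and 597 counts in leaf and 15 and 25 in root, or 24.9 and 28.9 normalized CPM in leaf and 1.07 and 1.41 in root. TR24666|c107748_g1_i1 had 366 and 521 counts in leaf and 16 and 13 in root, or 20.2 and 25.2 normalized CPM in leaf and 1.14 and 0.733 in root. In neither contig did leaf and root overlap, the closest pair of libraries lying 17.6 and 17.8 times apart. Libraries of the 2 tissues did not overlap for any of the 7 contigs. This is a weak criterion with 2 libraries per tissue, since root lay above leaf without overlap in 36.5% of all tested contigs and leaf above root in 36.1%.

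**Figure D1:**
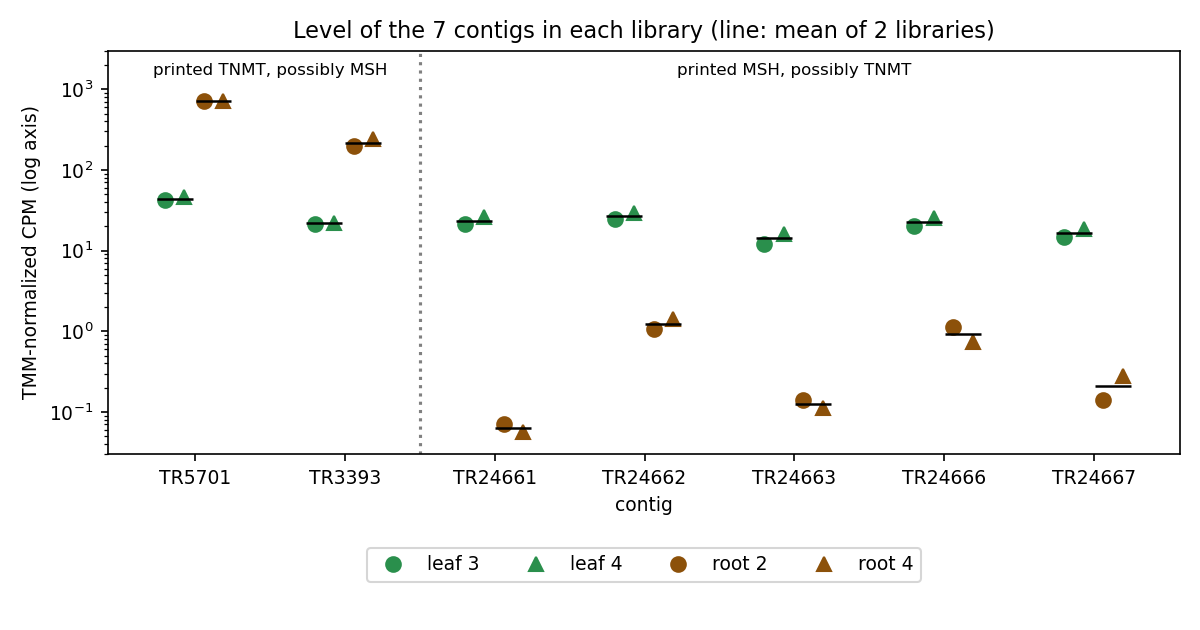
Normalized CPM (log axis) of the 7 contigs in the 4 libraries, green for leaf and brown for root, with circles for leaf 3 and root 2, triangles for leaf 4 and root 4, and a line at the mean of each tissue. Root lies above leaf in the 2 contigs on the left (near 709 against 44.0 for TR5701) and leaf above root in the 5 on the right, 3 of which rest on 1 to 5 counts in each root library.

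Root was compared with leaf over all 47385 contigs above 1 CPM in at least 2 libraries by edgeR's quasi-likelihood test. All 7 contigs passed this filter, but TR24661|c107743_g1_i1, TR24663|c107745_g1_i1, TR24666|c107748_g1_i1 and TR24667|c107749_g1_i1 were under 1 CPM in both root libraries and passed through leaf alone. A contig that passes in this way has to be higher in leaf, so the count of calls among these 5 contigs describes them and lends their direction no support. A contig was called at a Benjamini-Hochberg FDR under 0.001 with at least a 4-fold change. Under this rule 4 of the 5 contigs printed *MSH*, possibly *TNMT*, were called higher in leaf, as were 1.45% of all tested contigs. Their log2 fold changes, root minus leaf, were -8.40 for TR24661|c107743_g1_i1 (standard error 0.43, FDR 0.000879), -6.73 for TR24663|c107745_g1_i1 (0.43, FDR 0.000879), -6.22 for TR24667|c107749_g1_i1 (0.43, FDR 0.000903) and -4.42 for TR24662|c107744_g1_i1 (0.31, FDR 0.000911). The fifth, TR24666|c107748_g1_i1, stood at -4.61 (standard error 0.36) and missed the limit with an FDR of 0.00105. Since 0.000879 was the smallest FDR that any contig reached in this test, the called and uncalled members lie within a narrow band around the limit, and TR24666|c107748_g1_i1 missed it at a larger change than that of the called TR24662|c107744_g1_i1.

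Neither contig printed *TNMT*, possibly *MSH*, was called higher in root by edgeR's quasi-likelihood test (0 of 2, against 0.443% of all tested contigs), while 2 of 2 had an unadjusted p under 0.05, as did 24.1% of all tested contigs in that direction. The log2 fold change was 4.01 for TR5701|c170889_g1_i1 (standard error 0.38, FDR 0.00157) and 3.33 for TR3393|c131353_g1_i1 (standard error 0.31, FDR 0.00155). With the FDR limit raised to 0.05 and the 4-fold limit kept, both were called higher in root (10.6% of all tested contigs) and all 5 others higher in leaf (13.8%). The exact test of edgeR called the same 2 and 5 contigs at an FDR under 0.001 (9.91% of contigs in the root direction, 12.8% in the leaf direction), as did DESeq2 (8.76% and 10.4%). With limma-voom the calls were 2 in root (1.82%) and 4 in leaf (3.46%). No setting turned the direction of any of the 7 contigs. Over the settings in which each was tested, TR5701|c170889_g1_i1 stayed between 3.77 and 4.09 on the log2 scale and TR3393|c131353_g1_i1 between 3.10 and 3.46. On the leaf side the ranges were -8.61 to -7.95 for TR24661|c107743_g1_i1, -7.00 to -6.47 for TR24663|c107745_g1_i1, -4.72 to -4.25 for TR24662|c107744_g1_i1 and -5.01 to -4.23 for TR24666|c107748_g1_i1. TR24667|c107749_g1_i1 ranged from -6.81 to -5.87, the first without root 4 and the second without root 2, so that without root 4 its fold was over 1.5 times the fold behind the -6.22 of all 4 libraries.

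Some of these calls changed when a library was left out. Each such fit has a single library in one tissue, which is taken to vary like those of the other tissue, so a call that is kept there is no sign of stability. Without leaf 4 the quasi-likelihood test called no contig at all, in either direction. A call missing there is thus not particular to any of these contigs. TR24662|c107744_g1_i1 then stood at -4.46 on the log2 scale. The other 4 contigs printed *MSH*, possibly *TNMT*, were no longer tested, because they reach 1 CPM in too few of the remaining libraries. Without leaf 3 those 4 were again untested and TR24662|c107744_g1_i1 was called (0.949% of tested contigs called higher in leaf). With the tested contigs kept as they were, all 5 were called whichever library was left out, but the share of all contigs called higher in leaf then rose to 6.75% without leaf 3, 3.23% without leaf 4, 12.8% without root 2 and 14.5% without root 4. The contigs printed *TNMT*, possibly *MSH*, were called without root 2 (2.92% of tested contigs higher in root) or without root 4 (6.72%), and were not called without leaf 3 (FDR 0.0411 for TR5701|c170889_g1_i1 and 0.0265 for TR3393|c131353_g1_i1) or without leaf 4 (FDR 0.0393 and 0.0289).

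**Figure D2:**
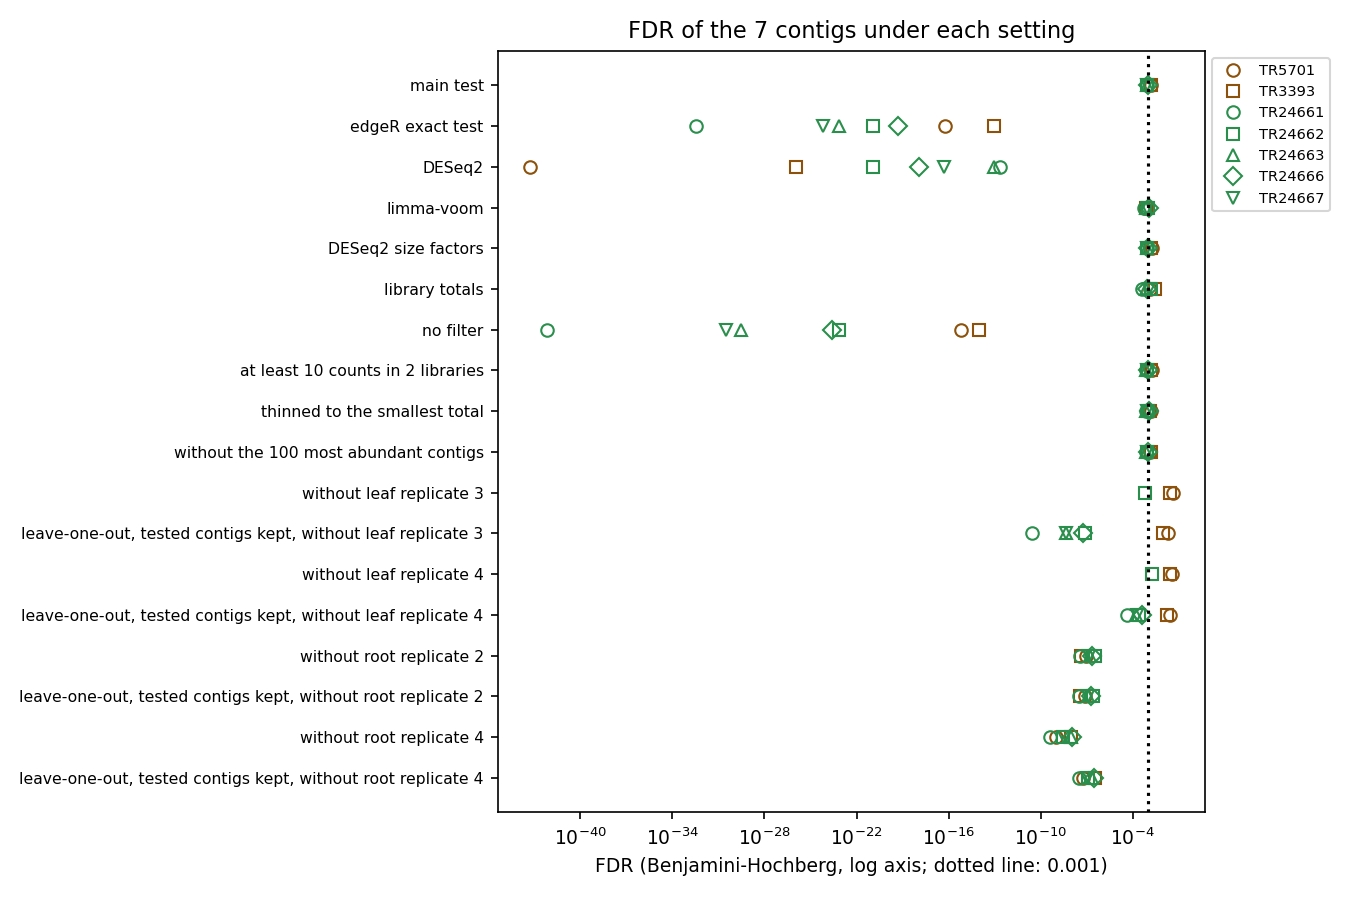
FDR of the 7 contigs (log axis, dotted line at 0.001) under the test reported and under each other setting, brown for the 2 contigs printed *TNMT*, possibly *MSH*, and green for the 5 printed *MSH*, possibly *TNMT*. Under the test reported the points lie between 0.000879 and 0.00157, on both sides of the limit, while the exact test, DESeq2 and the fit with no filter on low counts put all 7 far below it.

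Among all tested contigs the 7 lie towards the ends of the range without being at them. A higher log2 fold change than that of TR5701|c170889_g1_i1 was found in 2732 contigs, or 5.77%, and 3146 contigs exceeded TR3393|c131353_g1_i1. On the leaf side 654 contigs, or 1.38%, had a lower log2 fold change than TR24661|c107743_g1_i1, and 2537, or 5.35%, lay below TR24662|c107744_g1_i1. The median of the 5 was -6.22, and that of all tested contigs was 0.0061.

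**Figure D3:**
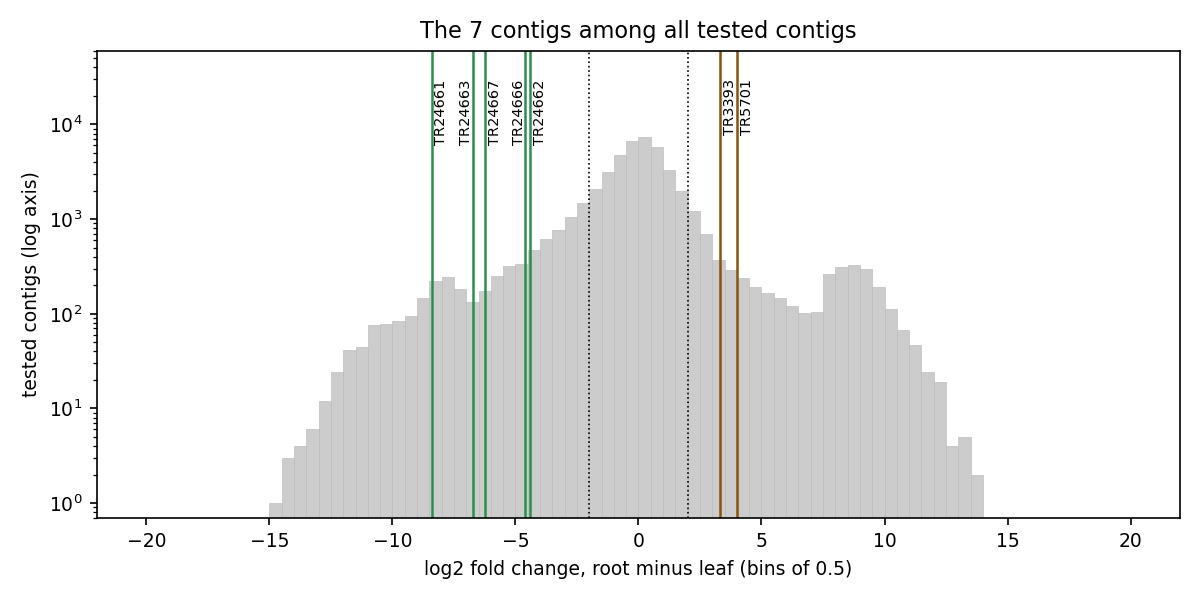
Number of tested contigs (log axis) in bins of 0.5 of the log2 fold change, root minus leaf, with the 7 contigs as lines, brown for the 2 printed *TNMT*, possibly *MSH*, and green for the 5 printed *MSH*, possibly *TNMT*, and dotted lines at a 4-fold change. The 7 lie outside the dotted lines, from -8.40 to 4.01, and both tails of the distribution reach further.

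The identifiers show that the 7 contigs come from 3 groups. Read in the order of the contig number, every TR number in the table is a group number followed by a running index, which divides the 232701 contigs into 167165 groups, 26779 of them with more than 1 contig. A group read in this way is taken as 1 component of the assembly, that is contigs built together from reads of similar sequence, although no source used here states the rule. All 5 contigs printed *MSH*, possibly *TNMT*, are from group TR2466, which has 9 contigs (indices 1 to 9), and so are not 5 separate observations. TR3393|c131353_g1_i1 is from group TR339 with 7 contigs, and TR5701|c170889_g1_i1 is alone in group TR570. RSEM, the program behind the counts, shares out reads that fit several contigs, so that the value of 1 contig within a group depends on that division and the sum over the group depends on it less.

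Summed over group TR2466, counts were 2677 and 3699 in leaf 3 and leaf 4 and 183 and 144 in root 2 and root 4. In normalized CPM the sum was 165 ± 20.8 for leaf and 10.2 ± 3.27 for root (SD, n = 2 each). The quasi-likelihood test of edgeR, run on 21346 groups, gave it a log2 fold change of -4.01 with a standard error of 0.34 and an FDR of 0.00161. The leaf preference of the sum, 16.1-fold, was thus well below that of TR24661|c107743_g1_i1. Group TR339 had 3376 and 3875 counts in leaf and 13149 and 20020 in root. Its sum was 189 ± 0.961 normalized CPM for leaf and 1003 ± 142 for root (SD, n = 2 each). The log2 fold change of this sum was 2.41, with a standard error of 0.28 and an FDR of 0.00375 in the same edgeR test, or 5.30-fold against 10.04-fold for TR3393|c131353_g1_i1 alone. Group TR570, a single contig, gave 3.95 (standard error 0.27, FDR 0.00101) in the table of groups.

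None of the 3 sums passed the FDR of 0.001 in this test (0 of 3, where 0.398% of groups passed in the root direction and 1.14% in the leaf direction), and all 3 passed an FDR of 0.05 (16.3% and 12.4%). All 3 sums were called by the exact test (15.0% of groups in the root direction, 11.2% in the leaf direction) and by DESeq2 (13.2% and 9.25%). All 3 had an unadjusted p under 0.05 in the quasi-likelihood test, as did 48.4% of all groups in either direction. With the filter applied to the 3 remaining libraries, the sum of group TR2466 was called whichever library was left out, with 1.56%, 1.08%, 11.7% and 16.5% of groups called higher in leaf without leaf 3, leaf 4, root 2 and root 4. The limit of these fits, a single library in one tissue, holds here too. The sums of groups TR339 and TR570 were called without root 2 (3.33% of groups higher in root) and without root 4 (6.50%). Without leaf 3 or leaf 4 they were not, with FDR values of 0.0643 and 0.0645 for group TR339 and 0.00804 and 0.00861 for group TR570.

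The contigs of a group did not change alike. In group TR2466, 8 of 9 contigs had higher levels in leaf and 1 in root. Besides the 5 members, TR24664|c107746_g1_i1 stood at -4.61 on the log2 scale (FDR 0.00122 by the quasi-likelihood test), TR24668|c107750_g1_i1 at -3.22 (FDR 0.00308) and TR24669|c107751_g1_i1 at -3.03 (FDR 0.00313). TR24665|c107747_g1_i1 was the exception, with 26 and 27 counts in leaf and 49 and 30 in root. Its log2 fold change of 0.90 did not pass edgeR's test (standard error 0.51, FDR 0.217). Whether the change of a contig differs from that of its whole group was tested with edgeR's diffSpliceDGE over the 38032 contigs in groups of at least 2 tested contigs, of which 2.92% differed at an FDR under 0.05. By this test 3 of the 5 members leaned further to leaf than group TR2466 as a whole: TR24661|c107743_g1_i1 by -4.44 on the log2 scale (FDR 1.06e-05), TR24663|c107745_g1_i1 by -2.78 (FDR 0.00549) and TR24667|c107749_g1_i1 by -2.26 (FDR 0.0146). These 3 rest on 1 to 5 counts in each root library. They passed the filter through leaf alone, and the study picked the members from these same libraries. Their lean to leaf within the group is thus a description and no independent support. The test takes RSEM's estimates as observed counts, so its FDR leaves out the uncertainty in how reads were divided among the contigs. For TR24662|c107744_g1_i1 and TR24666|c107748_g1_i1 no difference from the group was found (-0.47 and -0.65, both with an FDR of 0.99999). TR24665|c107747_g1_i1 differed in the other direction, by 4.86 (FDR 2.90e-07).

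**Figure D4:**
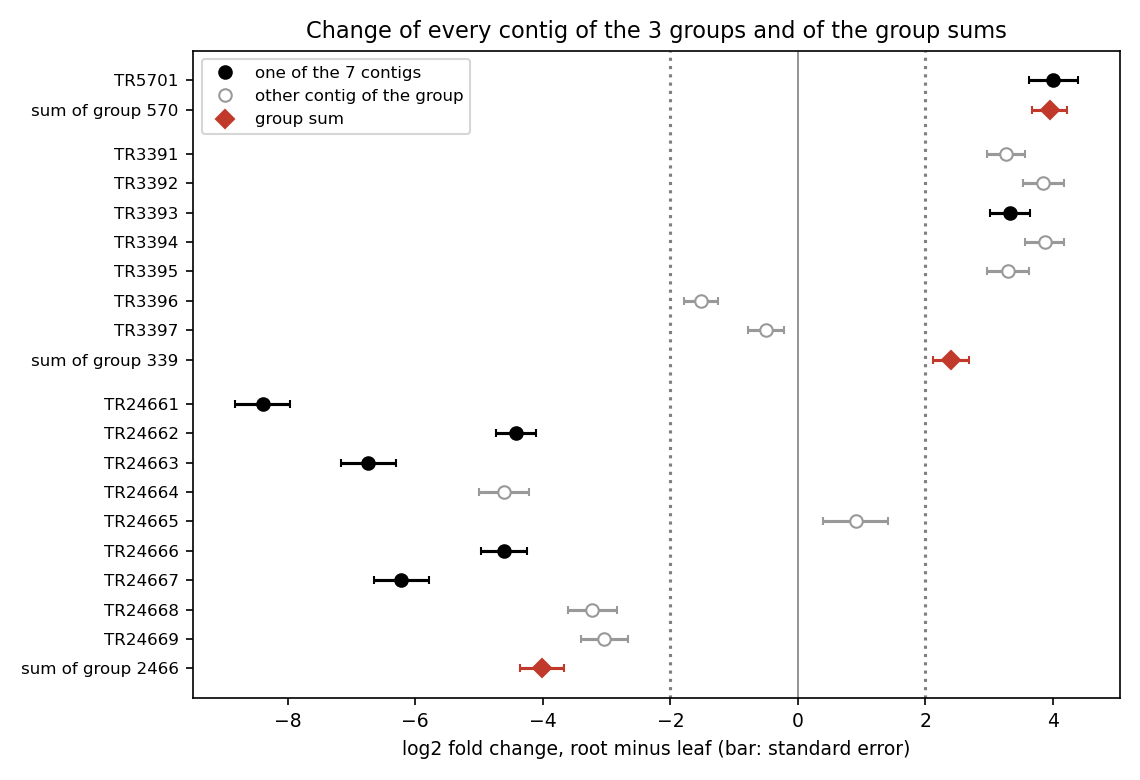
Log2 fold change, root minus leaf, with its standard error, for every contig of groups TR570, TR339 and TR2466 (black for the 7 contigs, open grey for the others) and for the sum of each group (red diamonds), with dotted lines at a 4-fold change. In group TR2466 values run from -8.40 (TR24661) to 0.90 (TR24665) around a sum at -4.01, and in group TR339 TR3396 and TR3397 lie left of 0 while the other 5 contigs lie between 3.26 and 3.87.

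As shares of the counts of group TR2466, the 5 members made up 63.1% in leaf 3 (95% Clopper-Pearson interval 61.2 to 64.9) and 64.2% in leaf 4 (62.6 to 65.8). In root they made up 19.7% in root 2 (14.2 to 26.2) and 31.9% in root 4 (24.4 to 40.2). TR24661|c107743_g1_i1 alone fell from 14.3% and 14.5% of the group in the leaf libraries to 0.546% and 0.694% in the root libraries, where it rests on 1 count each. TR24665|c107747_g1_i1 took 0.971% and 0.730% of the group in leaf and 26.8% (20.5 to 33.8) and 20.8% (14.5 to 28.4) in root. The leaf libraries gave nearly the same division, while root, with 183 and 144 counts for the whole group, is known less precisely. The study picked the 5 members from these same libraries, and TR24665|c107747_g1_i1 was singled out after its values were seen. Their shares therefore describe these contigs and lend the difference between tissues no support.

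Group TR339 held both directions as well. The contigs TR3391 to TR3395, among them the member TR3393|c131353_g1_i1, had log2 fold changes from 3.26 to 3.87, and the level of TR3393|c131353_g1_i1 moved with its neighbours, with no difference from the group found by diffSpliceDGE (0.86, FDR 0.924). TR3396|c131356_g1_i1 had 741 and 924 counts in leaf and 239 and 231 in root, a change of -1.51 on the log2 scale (FDR 0.00910 in edgeR's test), less than 4-fold. TR3397|c131357_g1_i1 had 1129 and 1110 counts in leaf and 498 and 835 in root, or -0.49 (FDR 0.225). Both differed from group TR339 as a whole by diffSpliceDGE, by -3.98 (FDR 1.09e-09) and -2.96 (FDR 3.84e-07). Together these 2 contigs, chosen after their values were seen, made up 55.4% (53.7 to 57.1) and 52.5% (50.9 to 54.1) of the counts of the group in leaf 3 and leaf 4. In root 2 and root 4 they made up 5.60% (5.22 to 6.01) and 5.32% (5.02 to 5.64). The lower fold change of the sum, against that of TR3393|c131353_g1_i1, follows from adding these contigs.

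**Figure D5:**
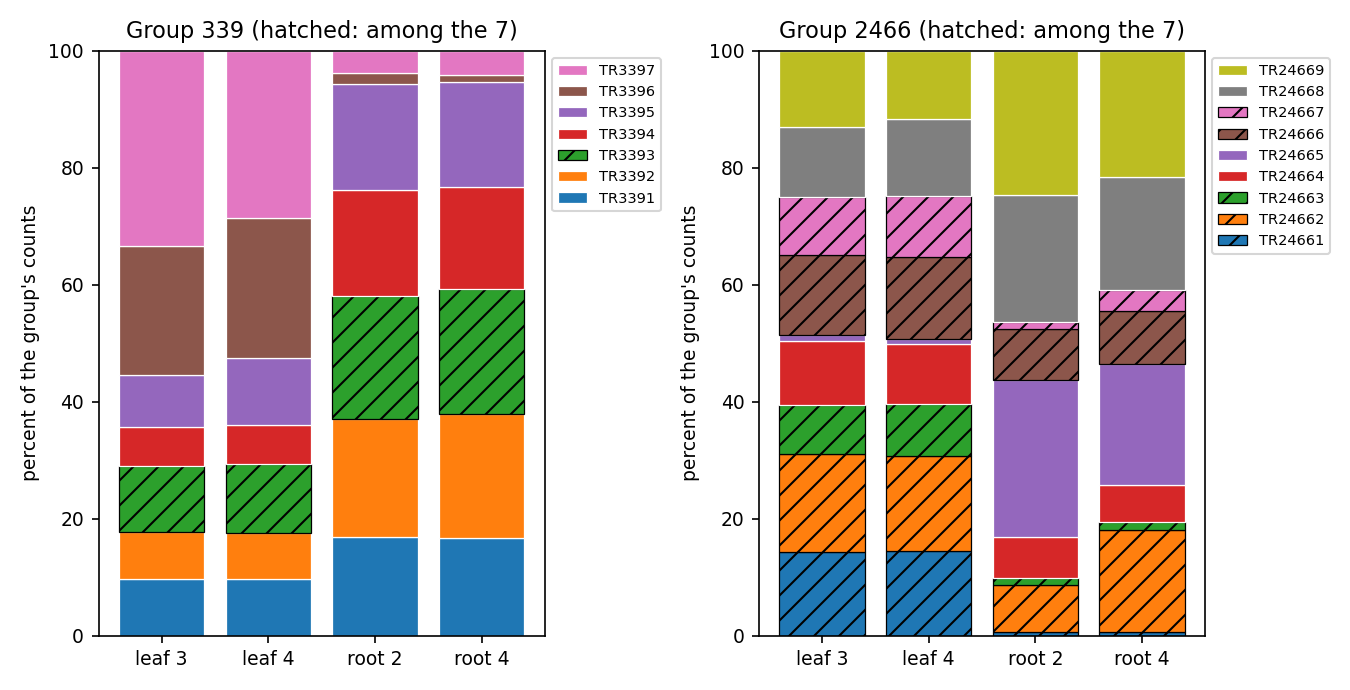
Share of the counts of group TR339 (left) and group TR2466 (right) held by each contig in each library, as stacked bars to 100%, hatched for the contigs among the 7. In group TR339 TR3396 and TR3397 hold 52.5% to 55.4% in the leaf libraries and 5.32% to 5.60% in the root libraries, and in group TR2466 TR24665 holds 0.730% to 0.971% in leaf and 20.8% to 26.8% in root.

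A further 16 contigs of enzymes before and after these steps, picked with earlier results known, were read from the same test. At the FDR limit of 0.001, 4 of the 16 were called, each in the root direction (0.443% of all tested contigs). At an FDR limit of 0.05, 15 were called in the root direction (10.6%) and 1 in the leaf direction (13.8%). By their numbering the 16 come from 11 groups, and so are not 16 separate observations. Some of the 16 were under 1 CPM in both leaf libraries and passed the filter through root alone. These are TR59161|c174098_g1_i1, TR190071|c90970_g1_i1, TR32823|c129122_g1_i1, TR271211|c114617_g1_i1 and, among those called at 0.001, TR32821|c129120_g1_i1, TR32822|c129121_g1_i1 and TR12323|c30377_g1_i1. Such contigs have to be higher in root, so the calls describe the list and lend its direction no support. For *P6H*, the next enzyme towards sanguinarine, TR12323|c30377_g1_i1 had a log2 fold change of 5.87 and was called, and TR12781|c35932_g1_i1 stood at 3.90 and was not (FDR 0.00124 in edgeR's test). Earlier in the pathway, *NCS*, which forms (S)-norcoclaurine, had 5 contigs from 3.14 to 10.88, with 3 called. The 2 contigs of *TYDC*, the decarboxylase of tyrosine and dopa, stood at 3.03 and 6.04, and the 3 of *CYP80B1*, the N-methylcoclaurine hydroxylase, at 2.02 to 2.06, all uncalled. Only *CNMT*, the N-methyltransferase of coclaurine, had a contig of the 16 with a higher level in leaf, TR72971|c194735_g1_i1 at -4.52 (standard error 0.55, FDR 0.00315), beside 3 with higher levels in root. Of these 11 groups, 1 thus had the leaf direction of the 5 contigs printed *MSH*, possibly *TNMT*. The root direction of TR5701|c170889_g1_i1 and TR3393|c131353_g1_i1 was that of 10. This tally describes the picked list alone, and the share of each direction over all groups was not counted. The list leaves out other alkaloid enzymes of the study, among them codeinone reductase (*COR*), which the study reports as higher in leaf.

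The contigs nearest to 2 of the members in level were looked for outside the 3 groups, by the Euclidean distance of log2 normalized CPM over the 4 libraries. To TR24662|c107744_g1_i1 these were TR78231|c202256_g1_i1, at a distance of 0.14, and TR48841|c157591_g1_i1, at 0.26. TR78231|c202256_g1_i1 had 427 and 619 counts in leaf and 16 and 26 in root, against 450, 597, 15 and 25 for the member itself. TR5701|c170889_g1_i1 had no neighbour as close: TR139|c50055_g1_i1 and TR134|c50050_g1_i1 lay at 0.98 each. By their numbering both fit the same group, and so are not separate observations. Their root libraries stood apart, at 890 and 393 normalized CPM for TR139|c50055_g1_i1, where TR5701|c170889_g1_i1 had the same level in both. The table gives these 4 contigs no gene names.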

How the data were processed

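Per the study's methods, the authors mapped each library with Bowtie to transcripts assembled by BinPacker (k-mer 25) and ran RSEM on the alignments. The deposited file holds RSEM's estimated counts per contig, not normalized. Versions of Bowtie and RSEM are not given in the sources used here. All 4 value columns were used, and every value was a whole number, so rounding changed nothing.

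Contigs over 1 CPM in at least 2 libraries were tested for root against leaf with edgeR 4.0.16 (R 4.3.3) by TMM scaling and the quasi-likelihood F test. Calls needed a Benjamini-Hochberg FDR under 0.001 and a change of 4-fold or more. The standard error was taken as the absolute log2 fold change over the root of F. Groups of contigs were read from the numbering of identifiers and summed for a second table, tested alike. The contigs named are the 7, the others of their groups, 16 contigs of 5 enzymes and the 2 nearest to each of 2 members. Members and lists were chosen with earlier results of these data known. Other settings were the exact test of edgeR, DESeq2 1.42.0, limma-voom (limma 3.58.1), other scalings, filters and thresholds, counts thinned to the smallest library, the table without its 100 most abundant contigs, and each library left out. The tests were also run on simulated counts, drawn for each contig on its own and so without reads shared among contigs. That run is not used as support here. Depth, 15281682 to 19781065 counts per library, makes 1 count 0.0506 to 0.0654 CPM before TMM scaling. Figures were drawn with matplotlib 3.10.9.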

Additional observations from a re-analysis of the deposited data

How the results depend on the processing

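No direction turned for the 7 contigs or the 3 group sums under any alternative. The number of the 7 called higher in root went from 0 to 2 with the exact test, DESeq2, limma-voom, no filter and an FDR under 0.05, and ranged from 0 to 2 with a library left out. The number called higher in leaf stayed between 3 and 5, except for 0 to 5 with a library left out. The 5 contigs were picked from these same libraries, so the steadiness of this number only describes them. It was 3 with library totals, where 818 of all 47385 tested contigs had a leaf call. It was 5 with at least 10 counts in 2 libraries (816 of 58256) and without the 100 most abundant contigs (843 of 50287). It was 4 after thinning (820 of 47077) and with the size factors of DESeq2 (806 of 47385). Over all contigs, calls higher in leaf went from 688 to 6081 with the exact test, 4914 with DESeq2, 1639 with limma-voom, 5488 with no filter and 6534 at an FDR under 0.05, and calls higher in root from 210 to 4698, 4152, 862, 7594 and 5042. With a library left out they ranged from 0 (without leaf 4) to 7632 in leaf and from 0 to 5617 in root. The sums gained a call at nearly the same size, from -4.01 (group TR2466), 2.41 (group TR339) and 3.95 (group TR570): -4.01, 2.41 and 3.95 with the exact test, -4.01, 2.40 and 3.95 with DESeq2, -4.13, 2.31 and 3.85 with no filter, and -4.01, 2.41 and 3.95 at an FDR under 0.05. Group TR2466 also gained one with library totals (-4.16), and groups TR2466 and TR570 with at least 10 counts in 2 libraries (-4.01 and 3.96). Group TR570 gained one with limma-voom (3.95) and after thinning (3.93). The share of all groups called was not recorded for no filter, library totals, the filter of 10 counts, limma-voom or thinning. A call gained by a sum in these settings therefore cannot be read as a result about that sum. With a library left out the sums ranged from -4.45 to -3.61, 2.25 to 2.55 and 3.75 to 4.05. With library totals TR24662|c107744_g1_i1 and TR24667|c107749_g1_i1 were no longer called (FDR 0.00168 and 0.00119 in edgeR's test) and TR24666|c107748_g1_i1 gained one (FDR 0.000875). The cause of these changes was not tested. No paired analysis was made, because no label states which leaf and root libraries, if any, come from the same plants. The counts in root, 1 to 25 per library for the 5 contigs higher in leaf, limit the precision of their ratios.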
